A study of Mus musculus with 6 samples.

Results

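Integrins, laminins and cadherins are the gene families through which a cell holds on to its matrix and to its neighbours. The set described here holds every protein-coding gene of the deposited expression table with a symbol of the form Itga followed by a digit or v, Itgb followed by 1 digit, Lama, Lamb or Lamc followed by 1 digit, or Cdh followed by digits only. These were 36 of 15796 genes, comprising 19 integrin subunits, 9 laminin chains and 8 cadherins. The rule reads gene symbols and the protein-coding label, not expression values. The values come from MC3T3-E1 cells, a line of pre-osteoblasts from mouse. The Hsd11b1 group held 3 libraries of cells that had received a plasmid with the mouse steroid enzyme gene Hsd11b1 (genotype label Hsd11b1 overexpression). The EGFP group held 3 libraries of cells that had received a plasmid with the EGFP gene (genotype label WT). Cells of both groups were incubated with 11-DHC, the inert steroid that 11β-HSD1, the product of Hsd11b1, turns into corticosterone, so no library lacks the steroid precursor. The labels do not say whether replicates were separate cultures, so the tests below gauge only the spread among these 6 libraries, which may be technical.

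An integrin is a pair of an α and a β subunit that spans the membrane, binds matrix proteins outside the cell and, through adaptor proteins such as talin and kindlin, the actin cytoskeleton inside. Laminins are trimers of an α, a β and a γ chain that form the sheet of the basement membrane and are bound by a subset of integrins. Classical cadherins join neighbouring cells through calcium-dependent contacts and are tied to actin by catenins. Osteoblasts are known to sit on collagen and fibronectin and to use cadherin 11 and N-cadherin for contact with each other. The single comparison of the study asks how 11β-HSD1 acts on osteoblastic cells under glucocorticoid excess.

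Hsd11b1 itself had an FPKM (fragments scaled to exon length and to library size) of 323, 315 and 345 in the Hsd11b1 libraries, against 1.90, 0.404 and 0.275 in the EGFP libraries, so the labels and the targeted gene point the same way. Scaling totals of reads recovered from the FPKM were 18290824, 18655715 and 58665308 in Hsd11b1 libraries 1 to 3. In EGFP libraries 1 to 3 they were 19932493, 34948122 and 16264239. Reads of the listed genes computed from them exceeded the total in each library (19095140 in Hsd11b1 library 1). The totals are therefore fitted values and recovered reads are approximate, and the cause was not tested. Of 9 pre-osteoblast and mesenchymal markers, 8 had a mean FPKM of at least 1, and the ninth, Alpl, was not analysed here. The summed FPKM of the 8 was 3118 to 3136 in Hsd11b1 libraries and 3308 to 3624 in EGFP libraries. In the limma test described below, 1 of the 8 was called higher, and Cdh11, itself a member of the set, was called lower. The others did not pass. No epithelial or endothelial marker reached a mean FPKM of 1. The epithelial sum (2 of 8 markers analysed) was 0.749 to 0.964 in Hsd11b1 libraries and 0.565 to 0.786 in EGFP libraries, and the endothelial sum (3 of 7) was 0.540 to 0.639 in Hsd11b1 libraries and 0.418 to 0.452 in EGFP libraries. The neural marker Tubb3 had an FPKM of 7.55 to 9.38 in Hsd11b1 libraries and 10.7 to 13.1 in EGFP libraries, and its part in the results was not tested. Gene deviations followed the GC content of the transcripts most in 2 libraries, Hsd11b1 library 3 (Pearson's r of 0.536 across 13091 genes) and EGFP library 1 (r of -0.424). The log2 difference between the groups correlated with GC content at 0.163 across those genes and at 0.249 across the 21 tested members. Genes are not independent replicates, and these correlations are descriptive. An alternative with a smoothed GC trend subtracted from each library is given below as the GC-adjusted fit. After that adjustment the correlation across the 21 tested members was 0.165.

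Of the 36 genes, 21 reached an FPKM of 1 as the mean of all 6 libraries and were tested with limma on log2(FPKM + 1), with p-values adjusted over all 13120 genes tested. At an adjusted p under 0.05, 4 were higher in Hsd11b1 cells (Itga10, Itga3, Lamb2 and Cdh2), 2 were lower (Itgb3 and Cdh11) and 15 did not pass. In bulk RNA, more cells of a kind and more RNA per cell cannot be told apart. The called share of 28.6% (6 of 21) stands beside 12.1% of all genes tested, with 6.22% higher and 5.84% lower. The median log2 difference of the 21 genes, Hsd11b1 minus EGFP, was 0.03, against -0.01 over all genes tested. Only Itga10 and Itgb3 were called with each of the 6 libraries left out in turn. Without EGFP library 2 and Hsd11b1 library 3, the deepest of their groups, 3 of 22 tested members passed (Itga10, Itgb3 and Cdh11), beside 8.13% of all genes. Among the 15 members below the filter, the groups did not overlap for 6 (4 higher and 2 lower), beside 23.8% of all genes below it, and among the 21 tested members for 11 (7 higher and 4 lower), beside 30.8% of all genes tested.

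**Figure D1:**
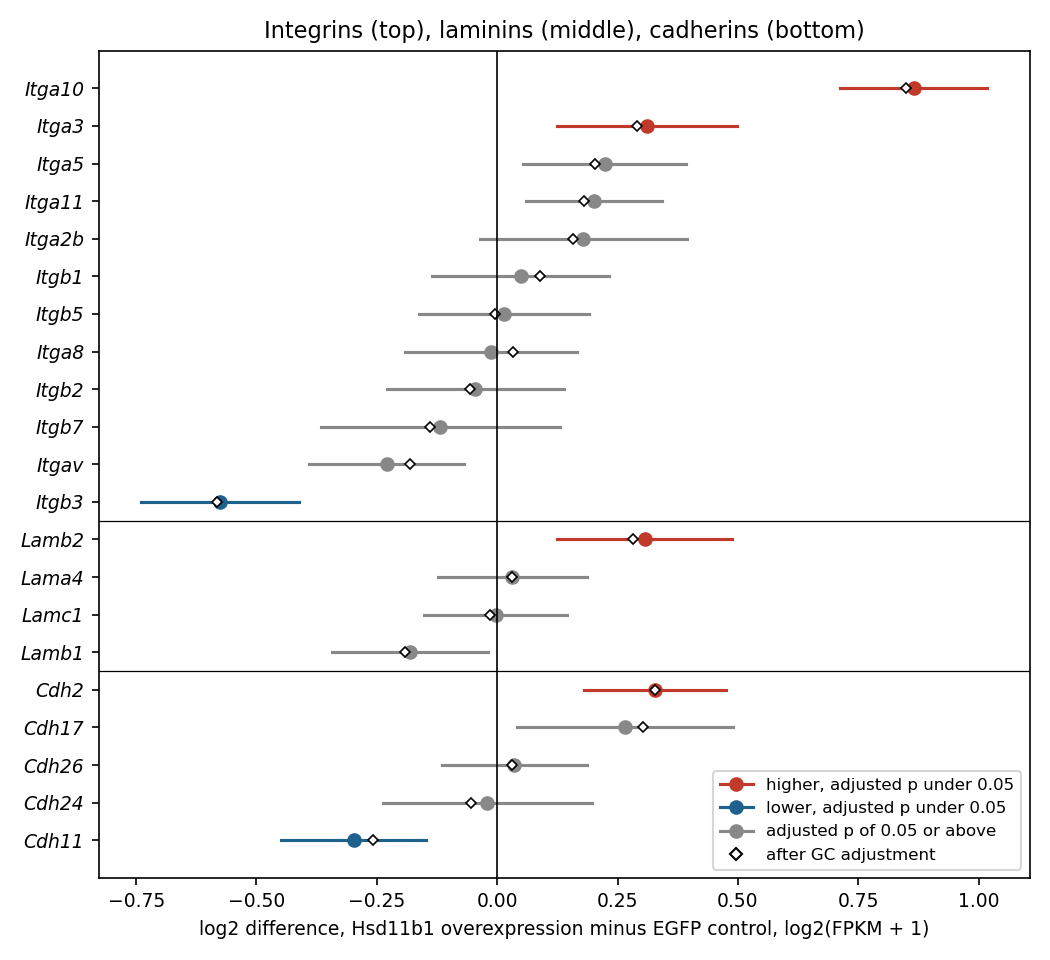
Log2 difference (Hsd11b1 overexpression minus EGFP control, on log2(FPKM + 1)) of the 21 tested integrin, laminin and cadherin genes. Points are limma estimates with 95% confidence intervals, colour marks the adjusted p, and open diamonds are the GC-adjusted estimates. Itga10 (0.86) and Itgb3 (-0.58) lie farthest from 0, and the diamonds stay close to the points.

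Among the integrin α subunits, the collagen receptor gene Itga10 changed most. Itga10 encodes a collagen-binding subunit that pairs with the product of Itgb1 and is best known from cartilage. Its FPKM was 60.5, 61.6 and 60.6 in Hsd11b1 libraries, against 30.7, 34.9 and 33.5 in EGFP libraries. All 3 Hsd11b1 values lay above all 3 EGFP values, and they differed from each other by little. The mean was 60.9 ± 0.621 in Hsd11b1 cells and 33.0 ± 2.1 in EGFP cells (SD, n = 3 each), a 1.84-fold difference, giving a log2 difference of 0.86 (SE 0.07, limma adjusted p = 0.000154). The call rested on 5736, 5961 and 18443 recovered reads in Hsd11b1 libraries and 3178, 6322 and 2823 in EGFP libraries. In the authors' deposited table, Itga10 has a log2 fold change of 0.88 and an adjusted p of 7.67e-30.

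Itga10 (ENSMUSG00000090210) lies on chromosome 3, from 96645584 to 96664519 on the plus strand of GRCm38. Of its 5186 exon bases, 33.5% are shared in GENCODE M21 with Gm42957, a gene annotated on the same strand. Reads in the shared bases cannot be assigned to either gene alone. Gm42957 was listed at an FPKM of 0.626 ± 0.172 in Hsd11b1 cells and 0.307 ± 0.0277 in EGFP cells (SD, n = 3 each). The RefSeq promoter window of Itga10, from 250 bases before to 50 bases after the annotated start (chr3:96645334-96645633, plus strand, GRCm38.p6), is shown because it belongs to the tested member with the largest log2 difference, with CG dinucleotides in capitals.
Itga10: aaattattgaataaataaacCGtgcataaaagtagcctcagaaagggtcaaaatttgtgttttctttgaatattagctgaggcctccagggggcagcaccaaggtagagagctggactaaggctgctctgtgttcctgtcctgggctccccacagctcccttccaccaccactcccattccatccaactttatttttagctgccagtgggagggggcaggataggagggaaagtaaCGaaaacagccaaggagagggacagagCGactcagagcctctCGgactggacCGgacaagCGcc
The window holds 6 CG dinucleotides, against a median of 7 over 32851 promoter windows of RefSeq.

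The other collagen-binding α subunits were at different levels. Itga11, a collagen receptor subunit known from fibroblasts and other mesenchymal cells, had an FPKM of 21.4, 22.4 and 22.4 in Hsd11b1 libraries, against 19.0, 18.4 and 19.8 in EGFP libraries. The groups did not overlap, but the log2 difference of 0.20 (95% interval 0.06 to 0.34) did not pass (limma adjusted p = 0.0735). Voom on recovered reads called it (0.22, adjusted p = 0.0470). Voom called 14.4% of all genes, against 12.1% in the limma fit above. Itga1 and Itga2, the collagen receptor subunits of many other cell types, had mean FPKM of 0.235 and 0.0729 in Hsd11b1 cells and 0.232 and 0.0798 in EGFP cells, with overlapping groups. The FPKM of Itga10 was thus the highest of the collagen receptor subunits in both groups, and the ratio of Itga10 to Itga11 within a library was 2.83, 2.75 and 2.71 in Hsd11b1 libraries, against 1.62, 1.90 and 1.69 in EGFP libraries. Of the summed FPKM of the 12 α subunits, Itga10 held 37.0% ± 1.02 in Hsd11b1 cells and 26.2% ± 0.953 in EGFP cells (SD, n = 3 each). That sum itself was 165 ± 4.22 in Hsd11b1 cells and 126 ± 3.84 in EGFP cells (SD, n = 3 each).

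The laminin receptor subunits included a member that was higher and a weakly expressed member with lower values. Itga3, which pairs with the product of Itgb1 to bind laminins, had an FPKM of 23.5, 23.0 and 27.3 in Hsd11b1 libraries, against 18.4, 20.1 and 20.3 in EGFP libraries. Every Hsd11b1 value was above every EGFP value, with Hsd11b1 library 3 the highest. This gave a log2 difference of 0.31 (SE 0.08, limma adjusted p = 0.0426). The call ended when any 1 of the 6 libraries was left out (adjusted p 0.0700 to 0.107). The GC-adjusted fit, which called 18.8% of all genes, gave 0.29 (adjusted p = 0.00543). Itga3 lies on chromosome 11, from 95044474 to 95076801 on the minus strand.

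Itga6, the other widespread laminin receptor subunit, had a mean FPKM of 0.994 over the 6 libraries and so fell just below the filter. Its FPKM was 0.757, 0.820 and 0.735 in Hsd11b1 libraries, against 1.37, 1.08 and 1.21 in EGFP libraries, with no overlap. These values rested on 125, 138 and 389 recovered reads in Hsd11b1 libraries and 246, 341 and 177 in EGFP libraries. In a limma fit with no filter on low values, its log2 difference was -0.32 (adjusted p = 0.0224), where 10.4% of 15796 genes were called. Itga7, a laminin receptor subunit of muscle, had a mean FPKM of 0.312 in Hsd11b1 cells and 0.315 in EGFP cells. Itgb4, which pairs with the product of Itga6 in the hemidesmosomes of epithelia, had 0.721 and 0.844 in Hsd11b1 and EGFP cells, and both of these genes had overlapping groups.

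The fibronectin receptor gene Itga5 had an FPKM of 35.7, 36.3 and 39.8 in Hsd11b1 libraries, against 30.1, 34.0 and 31.3 in EGFP libraries. Here too the groups did not overlap, and the log2 difference of 0.22 (95% interval 0.05 to 0.39) did not pass (limma adjusted p = 0.0930). Itga5 passed in the GC-adjusted fit (0.20, adjusted p = 0.0143), with quantile normalization (0.24, adjusted p = 0.0427) and with voom on recovered reads (0.24, adjusted p = 0.0487). Those fits called 18.8%, 12.3% and 14.4% of all genes, in that order. Itgav, which encodes the αv subunit of the receptors for vitronectin and osteopontin, had 14.1, 14.9 and 13.7 in Hsd11b1 libraries, against 17.6, 15.6 and 17.3 in EGFP libraries. Its values were below those of EGFP cells in every library, with a log2 difference of -0.23 (95% interval -0.39 to -0.07, adjusted p = 0.0741). It passed in the GC-adjusted fit (-0.18, adjusted p = 0.0411) and without EGFP library 2 (-0.28, adjusted p = 0.0480), where 10.2% of all genes were called.

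The remaining α subunits were low. Itga8, a receptor subunit for nephronectin, had an FPKM of 1.80 to 1.99 in Hsd11b1 libraries and 1.86 to 2.1 in EGFP libraries, with a log2 difference of -0.01 (95% interval -0.19 to 0.17). Itga2b, the αIIb subunit of the platelet fibrinogen receptor, had 1.98, 1.98 and 2.01 in Hsd11b1 libraries, against 1.47, 1.5 and 1.98 in EGFP libraries, where EGFP library 3 reached the Hsd11b1 level. Its log2 difference was 0.18 (95% interval -0.04 to 0.39, limma adjusted p = 0.282). Itga9 had a mean FPKM of 0.415 and 0.342 in Hsd11b1 and EGFP cells. Genes on the opposite strand share 5.9% of the exon bases of Itgav and 5.05% of those of Itga8 in GENCODE M21, and without the strand setting reads there cannot be told apart.

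Of the β subunits, Itgb3 fell. It encodes the β3 subunit, which pairs with αv in the vitronectin receptor and with αIIb on platelets. Its FPKM was 3.10, 3.24 and 3.36 in Hsd11b1 libraries, against 4.97, 5.44 and 5.53 in EGFP libraries. The groups were well apart, with the highest Hsd11b1 value below the lowest EGFP value. The mean of 3.24 ± 0.128 in Hsd11b1 cells was 0.609 of the 5.32 ± 0.30 in EGFP cells (SD, n = 3 each), with a log2 difference of -0.58 (SE 0.07, limma adjusted p = 0.00148). For Itgb3 a log2 fold change of -0.71 and an adjusted p of 1.89e-09 stand in the authors' deposited table. Itgb3 lies on chromosome 11, from 104608000 to 104670476 on the plus strand.

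Itgb8, another partner of αv and known for the activation of latent TGF-β, was below the filter. Its FPKM was 0.410, 0.431 and 0.314 in Hsd11b1 libraries, against 0.667, 0.642 and 0.712 in EGFP libraries, with 83, 89 and 204 recovered reads in the Hsd11b1 libraries and 147, 248 and 128 in the EGFP libraries. With no filter on low values its log2 difference was -0.27 (limma adjusted p = 0.0213), a size reduced by the pseudocount of 1, while the ratio of the means was 0.572. The abundant β subunits did not pass. Itgb5, another αv partner, had 136, 142 and 143 in Hsd11b1 libraries, against 127, 147 and 144 in EGFP libraries (log2 difference 0.01, 95% interval -0.16 to 0.19). The ratio of Itgb3 to Itgb5 within a library was 0.0227, 0.0229 and 0.0234 in Hsd11b1 libraries, against 0.0392, 0.0370 and 0.0384 in EGFP libraries. Itgb1, the shared partner of the collagen, fibronectin and laminin receptor subunits, had 176, 174 and 154 in Hsd11b1 libraries, against 172, 155 and 161 in EGFP libraries (log2 difference 0.05, 95% interval -0.13 to 0.23).

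The leukocyte subunits Itgb7 and Itgb2 had mean FPKM of 4.09 and 1.11 in Hsd11b1 cells and 4.55 and 1.17 in EGFP cells. Their log2 differences of -0.12 (95% interval -0.37 to 0.13) and -0.05 (95% interval -0.23 to 0.14) did not pass. Of 6 blood and macrophage markers, Cd68, Csf1r and Itgb2 had a mean FPKM between 1.14 and 1.88, the other 3 were not analysed here, and their summed FPKM was 4.23 to 4.65 in Hsd11b1 libraries and 4.22 to 5.09 in EGFP libraries. Summed over all 7 β subunits, the FPKM was 318 ± 9.23 in Hsd11b1 cells and 314 ± 4.01 in EGFP cells (SD, n = 3 each). Itgb1 and Itgb5 together held nearly all of it, at 52.8% and 44.2% in Hsd11b1 cells and 51.7% and 44.3% in EGFP cells, while Itgb3 held 1.02% in Hsd11b1 cells and 1.69% in EGFP cells.

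**Figure D2:**
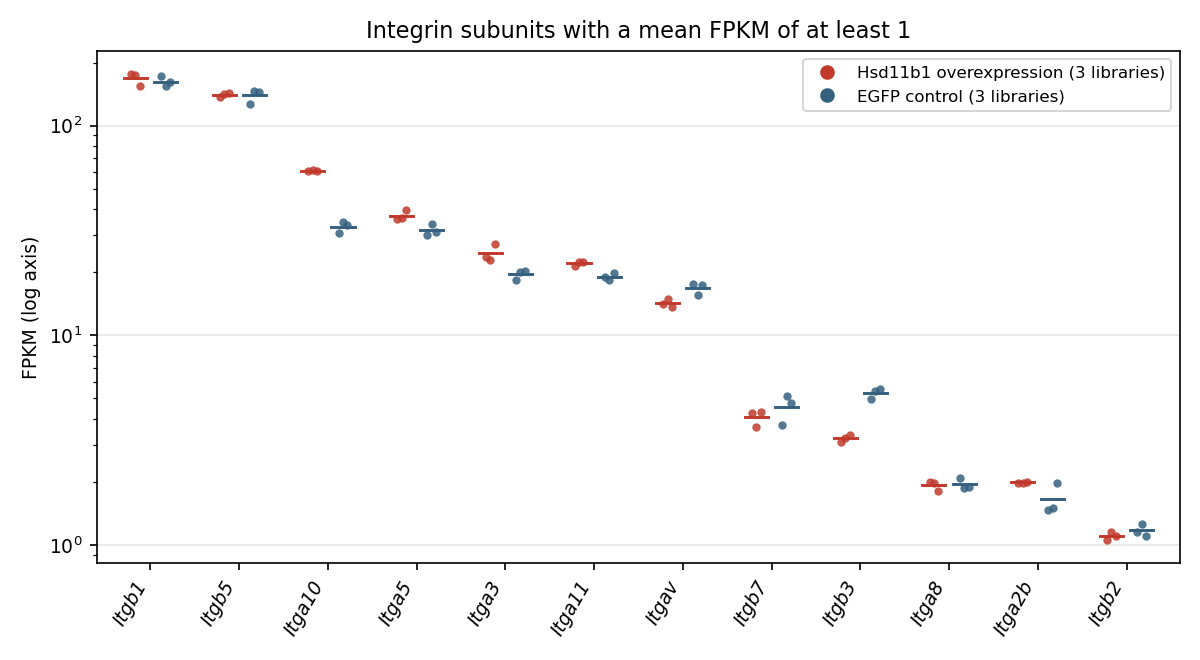
FPKM (log axis) of the 12 integrin subunits with a mean FPKM of at least 1, in order of level. Points are libraries, short lines are means, and Hsd11b1 overexpression stands left of EGFP control for each gene. The points of Itga10 separate upwards (60.5 to 61.6 against 30.7 to 34.9) and those of Itgb3 downwards (3.10 to 3.36 against 4.97 to 5.53).

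At a mean FPKM of at least 1, the cells expressed 1 laminin α chain, a pair of β chains and 1 γ chain, of which only Lamb2 was called. Lama4, the α chain of mesenchymal and vascular laminins, had an FPKM of 15.8, 16.2 and 14.8 in Hsd11b1 libraries, against 15.7, 14.4 and 15.5 in EGFP libraries. Lamc1, the γ chain of most laminins, had 39.4, 42.0 and 42.0 in Hsd11b1 libraries, against 41.6, 39.3 and 42.8 in EGFP libraries. Both sets of values overlapped, and the log2 differences were 0.03 (95% interval -0.12 to 0.19) for Lama4 and -0.00319 (95% interval -0.15 to 0.14) for Lamc1. Lama4 held 98.2% of the summed FPKM of the α chains in Hsd11b1 cells and 98.8% in EGFP cells.

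The β chains differed in direction, and Lamb2 passed the test. Lamb2, the β chain of mature basement membranes such as those of the kidney glomerulus and the neuromuscular junction, had an FPKM of 39.3, 39.1 and 43.3 in Hsd11b1 libraries, against 30.1, 32.3 and 35.5 in EGFP libraries. The lowest Hsd11b1 value was above the highest EGFP value, giving a log2 difference of 0.31 (SE 0.08, limma adjusted p = 0.0401). Lamb1, the widely expressed β chain, had 14.9, 14.5 and 16.8 in Hsd11b1 libraries, against 17.6, 17.5 and 17.7 in EGFP libraries. Every Lamb1 value in Hsd11b1 cells was below every EGFP value, but its log2 difference of -0.18 (95% interval -0.34 to -0.02) did not pass (adjusted p = 0.148). Within a library, the ratio of Lamb2 to Lamb1 was 2.63, 2.70 and 2.58 in Hsd11b1 libraries, against 1.71, 1.85 and 2.01 in EGFP libraries. This ratio, too, was chosen after the values were seen and restates the differences above. The call of Lamb2 ended without any library other than EGFP library 3 (adjusted p up to 0.104), and without EGFP library 2 and Hsd11b1 library 3 together the adjusted p was 0.159. In the GC-adjusted fit both chains passed, Lamb2 at 0.28 (adjusted p = 0.0129) and Lamb1 at -0.19 (adjusted p = 0.0461). That fit called 18.8% of all genes, against 12.1% in the limma fit above.

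Lamb2 lies on chromosome 9, from 108479736 to 108490530, and Lamb1 on chromosome 12, from 31265234 to 31329644, both on the plus strand of GRCm38. Only Lamb2 was called. Their RefSeq promoter windows (chr9:108479612-108479911 and chr12:31265043-31265342, GRCm38.p6) are shown because these paralogs encode β chains with log2 differences of opposite sign, again with CG dinucleotides in capitals.
Lamb2: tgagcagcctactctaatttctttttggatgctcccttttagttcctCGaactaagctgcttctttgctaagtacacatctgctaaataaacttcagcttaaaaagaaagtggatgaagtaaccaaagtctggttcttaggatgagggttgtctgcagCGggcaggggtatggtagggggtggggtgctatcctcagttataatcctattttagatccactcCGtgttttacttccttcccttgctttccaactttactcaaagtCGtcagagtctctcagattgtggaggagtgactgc
Lamb1: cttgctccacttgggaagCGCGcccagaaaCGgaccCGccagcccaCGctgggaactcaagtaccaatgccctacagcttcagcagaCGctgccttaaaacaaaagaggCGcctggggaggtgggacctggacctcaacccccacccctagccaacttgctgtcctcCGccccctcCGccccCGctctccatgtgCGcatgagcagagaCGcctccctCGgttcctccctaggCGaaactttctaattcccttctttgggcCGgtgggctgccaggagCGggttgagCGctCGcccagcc
The windows differ in composition, with a GC content of 44.0% and 4 CG dinucleotides for Lamb2 and 63.7% and 18 for Lamb1, against medians of 52.7% and 7 over all 32851 windows. The Lamb1 window holds 2 copies of the GC box GGGCGG on the opposite strand, and the Lamb2 and Itga10 windows hold none.

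Promoter windows were at hand for 23 of the 36 members (25 windows, since Itga3 and Lamb3 have a pair each). Letters of the core of the glucocorticoid receptor palindrome, GNACA followed after 3 free bases by TGTNC, occur on either strand in 0 of the 25 windows and in 0.475% of all 32851 windows. The half-site AGAACA occurs in 7 of the 25 (Cdh23, Cdh24, Itga2, Itgb1, Itgb7, Lama2 and 1 window of Lamb3) and in 19.0% of all windows. Of these 7 genes, 4 were below the filter and 3 were tested and did not pass. The AP-1 letters TGANTCA occur in 1 window each of Itga3 and Itga9 and in 7.81% of all windows, and the GC box GGGCGG in 12 of the 25 and in 35.7% of all windows. The letters TATAAA occur in 0 of the 25 and in 13.6% of all windows. The palindrome can hold the half-site, and the other searched motifs share no core letters with it. Matches are letters in a window and not bound sites, and the windows reach only 250 bases before the start. Windows of the called genes Itgb3, Cdh11 and Cdh2 were not used here.

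The other 5 laminin chains had a mean FPKM under 1. Lamb3, a chain of epithelial laminin, had 0.389, 0.324 and 0.338 in Hsd11b1 libraries, against 0.266, 0.234 and 0.195 in EGFP libraries. Lama3, its epithelial α partner, had 0.153, 0.130 and 0.0999 in Hsd11b1 libraries, against 0.0840, 0.0905 and 0.0687 in EGFP libraries, and Lama5 had 0.0864, 0.0894 and 0.102 in Hsd11b1 libraries, against 0.0573, 0.0402 and 0.0702 in EGFP libraries. The groups of these 3 genes did not overlap, with the Hsd11b1 values higher, beside 23.8% of all genes under the filter whose groups did not overlap in either direction. With no filter, none of the 3 passed (limma adjusted p 0.154 for Lamb3, 0.475 for Lama3 and 0.548 for Lama5). Lamb3 held 21 to 131 recovered reads a library. Its annotated span on chromosome 1, from 193207699 to 193343878 on the plus strand, encloses Hsd11b1 (193221634 to 193264075, minus strand), and the 2 genes share 0 exon bases in GENCODE M21. Whether reads of the Hsd11b1 locus or plasmid enter the Lamb3 values was not tested. Lama2, the α chain of muscle laminin, averaged 0.0597 in Hsd11b1 cells and 0.0478 in EGFP cells, with overlapping groups.

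**Figure D3:**
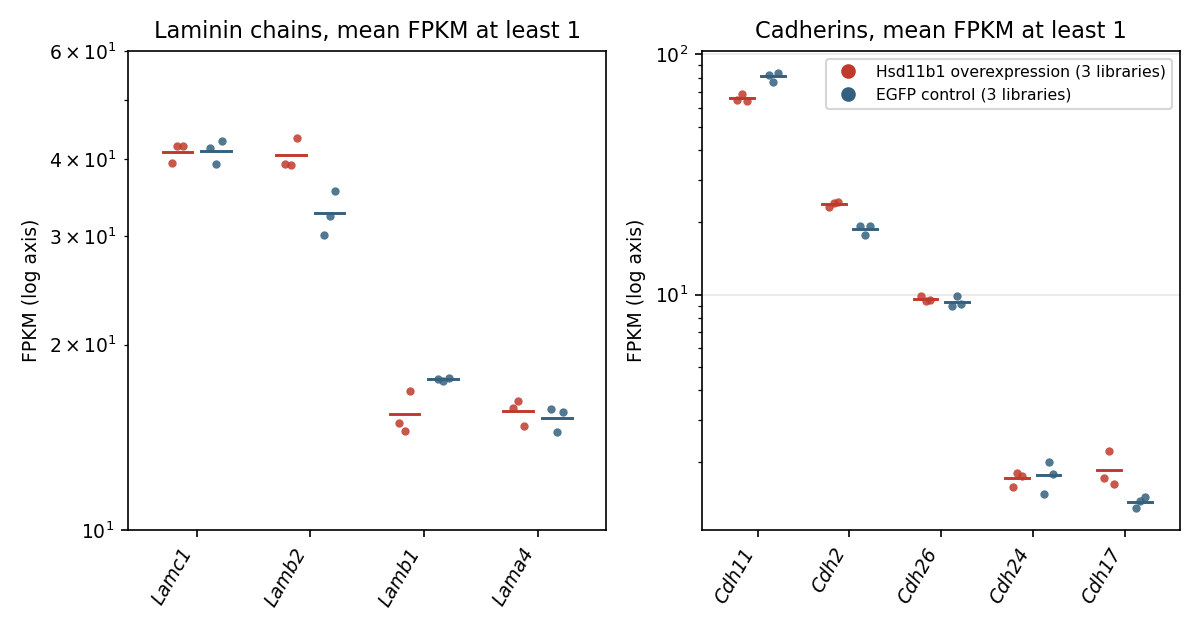
FPKM (log axis) of the 4 laminin chains (left) and 5 cadherins (right) with a mean FPKM of at least 1. Points are libraries and short lines are means, with Hsd11b1 overexpression left of EGFP control for each gene. Lamb2 lies higher and Lamb1 lower in Hsd11b1 libraries, and Cdh2 lies higher and Cdh11 lower.

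The classical cadherins of osteoblasts moved in opposite directions. Cdh2 encodes N-cadherin, and Cdh11 encodes cadherin 11, known as OB-cadherin from osteoblasts. Cdh2 had an FPKM of 23.1, 24.0 and 24.2 in Hsd11b1 libraries, against 19.2, 17.7 and 19.4 in EGFP libraries. Its groups did not overlap, and the mean of 23.8 ± 0.618 in Hsd11b1 cells was 1.27-fold that of 18.7 ± 0.940 in EGFP cells (SD, n = 3 each), with a log2 difference of 0.33 (SE 0.06, limma adjusted p = 0.0127). Cdh11 had 64.7, 68.1 and 64.1 in Hsd11b1 libraries, against 82.0, 76.8 and 84.0 in EGFP libraries. All Hsd11b1 values of Cdh11 lay below all EGFP values, giving a log2 difference of -0.30 (SE 0.07, adjusted p = 0.0208).

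Both genes therefore differed between the groups by more than their spread, in opposite directions. The ratio of Cdh2 to Cdh11 within a library, which does not depend on how libraries are scaled, was 0.356, 0.352 and 0.378 in Hsd11b1 libraries, against 0.234, 0.230 and 0.231 in EGFP libraries. The pair was chosen after its values were seen, so the ratio restates the differences above and is no further test. Cdh11 held 63.3% ± 0.730 of the summed cadherin FPKM in Hsd11b1 cells and 71.5% ± 0.814 in EGFP cells (SD, n = 3 each). Cdh2 held 22.9% ± 0.644 in Hsd11b1 cells and 16.5% ± 0.313 in EGFP cells. That sum itself was 104 ± 2.37 in Hsd11b1 cells and 113 ± 3.97 in EGFP cells (SD, n = 3 each). The call of Cdh2 ended without Hsd11b1 library 2 (adjusted p = 0.0637) and without EGFP library 2 and Hsd11b1 library 3 together (adjusted p = 0.0582). That of Cdh11 ended without any library other than EGFP library 2 (adjusted p up to 0.0880). Cdh11 lies on chromosome 8, from 102632095 to 102785642 on the minus strand, and its transcript has a GC content of 44.9%, against 49.5% for Cdh2.

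The other cadherins gave no call. Cdh26 had a mean FPKM of 9.57 in Hsd11b1 cells and 9.32 in EGFP cells, the third highest level of the family (log2 difference 0.04, 95% interval -0.12 to 0.19). Cdh17, known as the liver and intestine cadherin, had 1.72, 2.23 and 1.63 in Hsd11b1 libraries, against 1.29, 1.38 and 1.44 in EGFP libraries. Those groups did not overlap, but the log2 difference of 0.27 (95% interval 0.04 to 0.49) did not pass (limma adjusted p = 0.128). Cdh24 had a mean FPKM of 1.72 in Hsd11b1 cells and 1.77 in EGFP cells (log2 difference -0.02, 95% interval -0.24 to 0.20). Cdh22 and Cdh1 (the E-cadherin gene of epithelia) had mean FPKM of 0.821 and 0.194 in Hsd11b1 cells and 0.800 and 0.267 in EGFP cells, with overlap. Cdh23, a tip-link protein gene of inner ear hair cells, had 0.0613, 0.0759 and 0.0604 in Hsd11b1 libraries, against 0.0296, 0.0372 and 0.0363 in EGFP libraries. Its groups did not overlap, on 19, 24 and 60 recovered reads in Hsd11b1 libraries and 10, 22 and 10 in EGFP libraries, and its limma adjusted p was 0.592 with no filter.

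**Figure D4:**
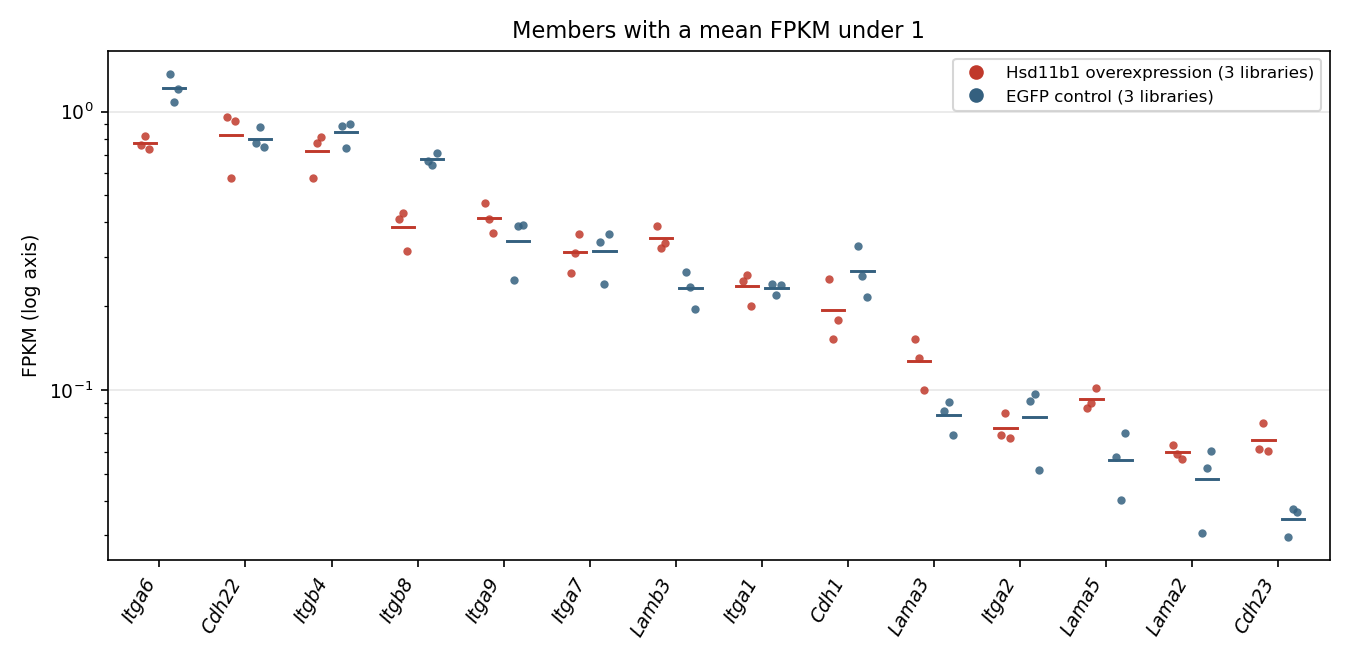
FPKM (log axis) of the integrin subunits, laminin α and β chains and cadherins with a mean FPKM under 1, in order of level. Points are libraries and short lines are means, with Hsd11b1 overexpression left of EGFP control for each gene. Itga6 and Itgb8 lie lower in all Hsd11b1 libraries, and Lamb3, Lama3, Lama5 and Cdh23 lie higher.

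In the authors' deposited table, 11 of the 36 members have an adjusted p below 0.05 (6 higher, 5 lower), where 13.1% of 15796 genes pass. The 6 calls made here recur there with the same sign. Besides them, the authors' deposited table calls Itga5 (0.23) and Itga11 (0.21) higher and Itgav (-0.25), Itga6 (-0.66) and Itgb8 (-0.83) lower, the values being log2 fold changes. There the αv gene Itgav and the partner genes Itgb3 and Itgb8 all carry negative values. The partner gene Itgb5 has 0.01 and the shared β gene Itgb1 has 0.05, and neither is called there.

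Partner genes inside and outside the cell were listed by role. Of 21 integrin adaptor genes, 20 were tested and Fermt1 was not analysed here. Of the 20, Lims2 alone passed, which is 5.0% beside 12.1% of all genes. Lims2 encodes PINCH-2, a LIM protein that binds integrin-linked kinase. Its FPKM was 4.17, 3.86 and 3.76 in Hsd11b1 libraries, against 0.440, 0.862 and 0.750 in EGFP libraries, a 5.75-fold difference of means with a log2 difference of 1.56 (SE 0.11, limma adjusted p = 8.28e-05). The EGFP mean was under 1, so Lims2 passed the filter only through the Hsd11b1 libraries. Its paralog Lims1 had a mean FPKM of 42.7 in Hsd11b1 cells and 37.8 in EGFP cells (log2 difference 0.17, adjusted p = 0.341). Talin 1 (Tln1) had 61.1 in Hsd11b1 cells and 58.3 in EGFP cells, and filamin A (Flna), the most abundant of the list, 209 in Hsd11b1 cells and 203 in EGFP cells, and neither passed. The adaptors with the next smallest p were Parvb (-0.26), Tln2 (0.17), Zyx (0.22) and Vcl (0.12), with adjusted p of 0.0809 to 0.261 for their log2 differences. The median log2 difference of the list was 0.03.

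Of 25 genes for integrin ligands, basement membrane components and their non-integrin receptors, 18 were tested, Nid1 was below the filter and 6 were not analysed here. Of the 18, 7 rose, 2 fell and 9 did not pass, beside 12.1% of all genes called, with a median log2 difference of 0.16. Without EGFP library 2 and Hsd11b1 library 3, 5 rose and 1 fell, and without Hsd11b1 library 2, 4 rose. Those fits called 8.13% and 6.82% of all genes. Col4a1 and Col4a2, the collagen IV chains of all basement membranes, rose to a mean FPKM of 68.0 and 55.1 in Hsd11b1 cells, against 49.9 and 42.5 in EGFP cells (limma adjusted p = 0.0152 and 0.0298). Nid2, which encodes nidogen 2, a linker between laminin and collagen IV, rose to 72.1 in Hsd11b1 cells, against 53.1 in EGFP cells (log2 difference 0.43, SE 0.07, limma adjusted p = 0.00586). Col4a6, another collagen IV chain, fell to 28.8 in Hsd11b1 cells, against 38.1 in EGFP cells (-0.39, SE 0.07, adjusted p = 0.00606), so that collagen IV chains did not move alike. Col4a5 had 24.1 in Hsd11b1 cells and 24.9 in EGFP cells and did not pass. The most abundant genes of the list, Spp1 (osteopontin) and Fn1 (fibronectin), had 1142 and 921 in Hsd11b1 cells and 1251 and 832 in EGFP cells, with log2 differences of -0.14 (95% interval -0.36 to 0.09) and 0.15 (95% interval -0.09 to 0.39).

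Among matricellular ligands, Thbs1 (thrombospondin 1) rose to a mean FPKM of 41.0 in Hsd11b1 cells, against 27.2 in EGFP cells, a 1.51-fold difference (limma adjusted p = 0.00154). Tnc, which encodes tenascin C, rose to 3.86 in Hsd11b1 cells, against 2.35 in EGFP cells (adjusted p = 0.00281), and Sparc, the osteonectin gene, to 624 in Hsd11b1 cells, against 498 in EGFP cells (adjusted p = 0.0383). Npnt (nephronectin) fell to 2.35 in Hsd11b1 cells, against 3.24 in EGFP cells (adjusted p = 0.0328). Sdc4, a heparan sulfate proteoglycan that acts with integrins at focal adhesions, rose to 82.5 in Hsd11b1 cells, against 61.7 in EGFP cells (adjusted p = 0.00670). The call of Sparc ended without Hsd11b1 library 1 or 2 or EGFP library 1 or 3 (adjusted p up to 0.176), and with no filter (0.0575). That of Npnt ended without any library other than EGFP library 2 (up to 0.115), that of Col4a2 without any other than Hsd11b1 library 1 (up to 0.0841), and that of Col4a1 without Hsd11b1 library 2 (adjusted p = 0.0617) or without EGFP library 2 and Hsd11b1 library 3 together (adjusted p = 0.0766).

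Of 15 catenins and relatives, 9 were tested, Jup and Pkp3 were below the filter and 4 were not analysed here. Of the 9, 2 rose, 0 fell and 7 did not pass (22.2% called, beside 12.1% of all genes tested, with a median log2 difference of -0.05). Arvcf, a catenin of the p120 subfamily that binds the cadherin tail near the membrane, rose to a mean FPKM of 3.75 ± 0.243 in Hsd11b1 cells, against 2.04 ± 0.224 in EGFP cells (SD, n = 3 each, limma adjusted p = 0.00183). Ctnnb1 (β-catenin), which binds the cadherin tail and also acts in Wnt signalling, rose to 136 in Hsd11b1 cells, against 99.1 in EGFP cells (log2 difference 0.45, limma adjusted p = 0.00239). Afdn (afadin), an actin-binding protein of nectin contacts, had a log2 difference of 0.25 (limma adjusted p = 0.0593), Pkp4 (plakophilin 4) one of -0.23 (adjusted p = 0.0643) and Ctnnal1 one of -0.17 (adjusted p = 0.173). Ctnna1 (α-catenin), the link to actin, had 78.1 in Hsd11b1 cells and 81.4 in EGFP cells, and did not pass. Ctnnd1 (p120-catenin) had 4.13, 3.59 and 5.57 in Hsd11b1 libraries, against 7.29, 3.51 and 3.57 in EGFP libraries, with EGFP library 1 far above the other two of its group. The log2 differences were -0.06 (95% interval -0.20 to 0.08) for Ctnna1 and -0.05 (95% interval -0.58 to 0.49) for Ctnnd1, the widest interval of this list.

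**Figure D5:**
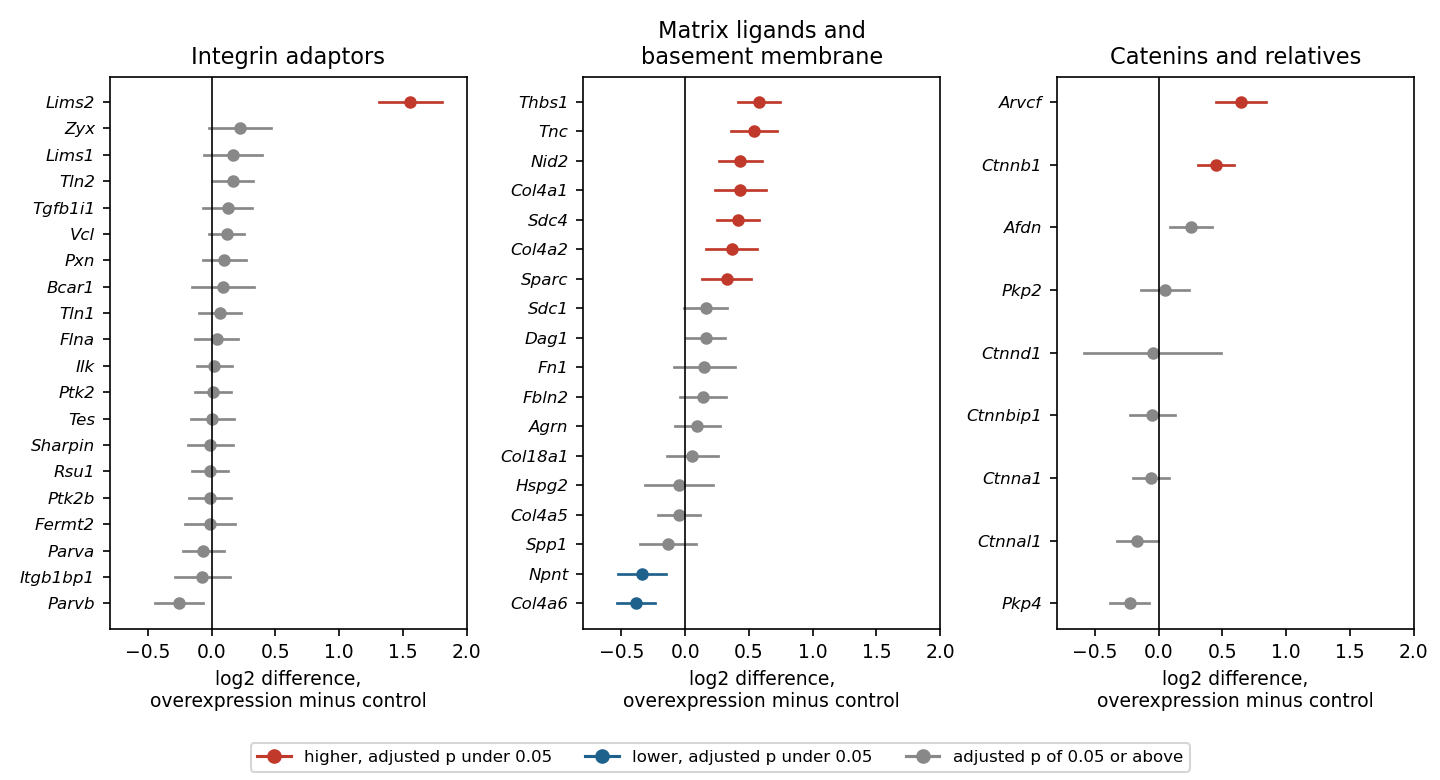
Log2 difference (Hsd11b1 overexpression minus EGFP control, on log2(FPKM + 1)) of the tested genes of 3 partner lists, with 95% confidence intervals. Colour marks the adjusted p. Lims2 (1.56) stands alone among the adaptors, 7 matrix genes lie higher and 2 lower, and Arvcf and Ctnnb1 lie higher among the catenins.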

How the data were processed

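RNA from 6 libraries (3 Hsd11b1, 3 EGFP) was isolated with TRIzol and sequenced after a stranded mRNA library kit, per the labels' protocols. Tools listed in the submitters' processing notes are featureCounts 1.6.3, HISAT2 2.1.0 and cutadapt 2.5, with mouse build mm10. Which annotation, strand setting and differential test the authors used is not given in the sources used here. What the authors deposited is FPKM per library, and their log2 fold change, p-value and adjusted p-value per gene (deposited table), used only where named. Only the table of all 15796 genes was used.

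The 13120 genes that averaged an FPKM of 1 or more were tested on log2(FPKM + 1) with limma 3.58.1 in R 4.3.3 (eBayes with a trend, two-sided, Benjamini-Hochberg over all genes tested, threshold 0.05). The pseudocount of 1 makes log2 differences of low genes smaller. Scaling totals of the libraries were recovered from FPKM and GENCODE M21 exon lengths of 15776 genes (93.7% to 94.9% of values up to 1000 reads whole within 0.05). The limma step was tested on simulated data without a GC trend, so that test does not gauge the GC-linked deviations of these libraries. GC content is that of the longest transcript. Coordinates are GENCODE M21, and promoters RefSeq GRCm38.p6. A member below the filter and a marker are counted in the totals but not reported here by name. Every other member is described. Values in each library are given for called genes and for those with separate groups or an unadjusted p under 0.05. They are also given for the most abundant, other than Cdh26 and Cdh24, which have group means. Of each partner list, called genes, those with the smallest p and the most abundant are named, and other members given were chosen after their values were seen. Members and lists were chosen with earlier results of these data known. Ratios within a library were chosen after the values were seen, so their separation between the groups is no further test. Alternatives covered pseudocount, filter, scaling, trend, replicate block and left-out libraries, with the GC-adjusted fit (lowess, span 0.3) and voom on recovered reads (median-of-ratios scaling) added after the data were seen.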

Additional observations from a re-analysis of the deposited data

How the results depend on the processing

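With each library left out in turn, the higher calls over all genes ran from 479 to 720 and the lower calls from 415 to 613. In either direction, 6.82% to 10.2% of all genes were then called. Among the members the calls ran from 1 to 3 higher and from 1 to 3 lower, for integrins 1 higher and 1 to 2 lower, for laminins 0 to 1 higher, for cadherins 0 to 1 in either direction, and for matrix genes from 4 to 6 higher and 1 to 2 lower. Without Hsd11b1 library 3 and EGFP library 2 together, 474 genes were called lower, 1 member higher (an integrin, with 0 laminins and 0 cadherins) and 1 matrix gene lower. That fit called 8.13% of all genes. The GC-adjusted fit called 1297 genes higher and 1162 lower, 18.8% of 13091. Among them 4 members were lower (2 integrins, 1 laminin and 1 cadherin), 2 adaptors higher and 1 lower, and 1 catenin lower. Without a trend, 2 members were called higher (1 integrin and 0 laminins), beside 11.8% of all genes called in either direction. With no filter, 4 members were called lower, 3 of them integrins, beside 10.4% of all genes called in either direction. With a mean FPKM of at least 5, 14.5% of the genes tested were called. There 1 member was lower, with 0 integrins lower, 0 adaptors higher, 1 matrix gene lower and 1 catenin higher. Of the member and partner genes called at a mean FPKM of at least 1, Itgb3, Lims2, Npnt, Tnc and Arvcf were then not tested. Voom on recovered reads called 995 genes higher and 891 lower, 14.4% of 13105, with 4 integrins higher. With the replicate number as a block, 1 integrin was called higher, 1 member lower with 0 cadherins lower, and 1 matrix gene lower. Of all 13120 genes tested, 1316 were called with the block, against 1582 in the limma fit above. Deviations of same-numbered libraries correlated at 0.209, -0.294 and -0.0269 over 13120 genes, and 1 of 3 numbers correlated best with its own, so the numbers were not taken as pairs. The signs of 6 small differences turned. Itga8 became 0.032 when GC-adjusted (-0.033 to 0.023 with 1 library left out). Itgb5 became -0.030 with quantile normalization and -0.00495 when GC-adjusted (-0.051 to 0.053). Lamc1 became 0.00745 with median-of-ratios scaling and 0.00757 with voom (-0.037 to 0.027). Lama4 ran from -0.00422 to 0.068 and Cdh24 from -0.10 to 0.045 with 1 library left out, and Cdh24 became 0.033 without the 2 deepest. Flna became -0.011 with quantile normalization and -0.018 without those 2 libraries. Over member and setting pairs, 303 kept direction and side of the threshold, 24 lost the call, 7 gained it and 16 changed sign. The cause of these changes was not tested. Differences of about 0.3 or less on the log2 scale were near what 3 libraries a group could call, and members under 1 FPKM rested on 6 to 389 reads a library.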
